A study of Bos taurus with 4 samples.

Results

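Krüppel-like factors (KLFs) are transcription factors that bind GC-rich and CACCC elements through zinc fingers at their C-terminal end, and several act on the promoters of the adipogenic regulators PPARG and the C/EBP genes. In mouse preadipocyte lines KLF4, KLF5, KLF6, KLF9 and KLF15 are known to promote fat cell formation, while KLF2 and KLF3 are known to restrain it. KLF10 and KLF11 were first described as genes induced by TGF-beta. Of 10 KLF genes sought by name (KLF2, KLF3, KLF4, KLF5, KLF6, KLF9, KLF10, KLF11, KLF13 and KLF15), 9 had at least 1 non-control probe carrying that name in the array files. Together they had 22 of the 43653 probes, namely 3 each for KLF5, KLF6, KLF11, KLF13 and KLF15, 2 each for KLF3, KLF4 and KLF9, and 1 for KLF10. No probe carried the name KLF2, so KLF2 itself was not analysed here. Of the 22 probes, 20 exceeded the scanner software's background threshold on every array of some group and were tested among 31207 such probes; the other 2, both for KLF15, were not.

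RNA came from bovine intramuscular preadipocytes (BIP cells), fat cell precursors from within skeletal muscle. The 4 groups were cells kept 6 days in adipogenic medium with all-trans retinoic acid (ATRA) at 1 µM, the same with 9-cis retinoic acid (9cRA) at 1 µM, the same with no retinoid (day 6 control), and cells harvested at day 0 of stimulation. The medium of the 6-day cultures held insulin (50 ng/mL), dexamethasone (0.25 µM, a synthetic glucocorticoid), octanoate (5 mM), acetic acid (10 mM) and 10% fetal bovine serum, and was renewed every 2 days. The labels list the same additions for the day 0 entry, whose cells were harvested at day 0 of stimulation. Day 6 differs from day 0 in time in culture and in exposure to this medium, and these cannot be told apart. Each group is 1 entry in the labels with 3 Cy3 arrays, and nothing says that the arrays came from separate cultures, so p-values here reflect spread among arrays alone, and that spread may be technical. In RNA from a whole culture, fewer cells of a type and less RNA per cell cannot be told apart. As a check of the labelled cell type, 8 of 8 preadipocyte and stromal markers were tested, PDGFRA, THY1, COL1A1 and COL3A1 among them, and their summed signal stayed between 230 and 266 times the array's 75th percentile in every group. Under this sum single markers moved both ways, by the calls defined below at their brightest probes. From day 0 to the day 6 control 5 rose and 2 fell, beside 30.9% and 31.1% of all genes. Against the day 6 control 3 rose and 1 fell with ATRA (23.2% and 21.9% of all genes). With 9cRA 5 rose and 1 fell (24.2% and 21.4%). Of the adipocyte markers, ADIPOQ did not pass the background threshold on any of the 12 arrays.

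Levels are log2 signal minus the array's own 75th percentile, so 0 is the brightness at that percentile, and they compare arrays for 1 probe, not probes with each other. Differences are on the same log2 scale, with p-values from limma adjusted by the Benjamini-Hochberg method over all 31207 probes, and a probe was called at an adjusted p under 0.05. The arrays lay on 3 slides that also differed in scan. The day 0 arrays shared slide 1 with the first array of the day 6 control. Its remaining 2 arrays shared slide 2 with the first 2 ATRA arrays, and the third ATRA array shared slide 3 with all of 9cRA. No slide held both 9cRA and day 6 control arrays, so with slide as a fixed block that comparison runs through ATRA alone. Between 64.8% and 74.0% of spots per array were well above background. Day 6 control array 1 had 103 non-uniform spots.

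Where probes of 1 gene gave different values, their place on the transcript differed, and the following probes are shown because the results turn on them. They come from the array files, 5′ to 3′, with coordinates on UMD3.1, and capitals in the KLF13 pair mark CG dinucleotides. The first KLF13 probe (chr21:28220249-28220308, plus strand) was 90% G or C, higher than 99.99% of probes, and brighter than 99.8% of them. It stood next to a second (chr21:28220637-28220696, plus strand) with a G and C content of 55%. The KLF5 (chr12:48107053-48107112, plus strand), KLF6 (chr13:44948259-44948318, plus strand) and KLF11 (chr11:87532800-87532859, minus strand) probes each lay farthest toward the 5′ end of the gene's strand, as did the KLF15 probe (chr22:61285271-61285330, plus strand), one of the pair too dim to test.
KLF13 A_73_P479573: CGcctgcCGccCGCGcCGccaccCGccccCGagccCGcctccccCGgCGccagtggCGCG
KLF13 A_73_P039396: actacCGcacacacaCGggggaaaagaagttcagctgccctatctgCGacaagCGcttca
KLF5 A_73_P367701: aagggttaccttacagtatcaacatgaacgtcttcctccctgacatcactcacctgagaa
KLF6 A_73_P421856: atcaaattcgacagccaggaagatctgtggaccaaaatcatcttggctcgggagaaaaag
KLF11 A_73_P082996: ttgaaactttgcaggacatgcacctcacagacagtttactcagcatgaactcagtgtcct
KLF15 A_73_P093996: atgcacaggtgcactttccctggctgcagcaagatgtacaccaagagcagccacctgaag
The other pair of KLF6 probes shared 41 of their 60 bases, as did the other pair of KLF11 probes, so each pair is nearly 1 measurement. No member probe shared a stretch of 20 bases with a probe of another gene.

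Across the comparisons the KLF genes split by gene rather than moving together. With either retinoid KLF4, KLF5, KLF6 and, by 2 of its 3 probes, KLF13 stood below the day 6 control, and KLF3 stood above it. Over 6 days without retinoid KLF9, KLF10, KLF11, 2 of 3 KLF5 probes and the same 2 KLF13 probes rose, whereas KLF3, KLF4 and KLF6 fell. Neither KLF5 rise was called with slide as a fixed block. With ATRA, 16 of 20 probes were called against the day 6 control, 3 higher and 13 lower, where 43.5% of all probes were called, 21.9% higher and 21.5% lower. With 9cRA, 18 of 20 were called, 4 higher and 14 lower, again beside 43.5% of all probes, 22.7% higher and 20.9% lower. In the day 6 control against day 0, 17 of 20 were called, 10 higher and 7 lower, beside 61.7% of all probes (28.6% higher and 33.1% lower). The median log2 difference over the 20 probes was -0.40 for ATRA, -0.38 for 9cRA and 0.22 for the day 6 control against day 0, beside 0.039, 0.046 and -0.031 over all tested probes. Both retinoids were set against the same day 6 control arrays. With slide as a fixed block, the 9cRA count was 9, all lower, beside 6496 of all 31207 probes (2820 higher and 3676 lower). Those 9 were the probes of KLF4, KLF6, KLF5 (2 of 3) and KLF13 (2 of 3). With slide as a random block the 9cRA count was 15, 3 higher and 12 lower, beside 10508 of 31207 probes (5128 higher and 5380 lower).

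**Figure D1:**
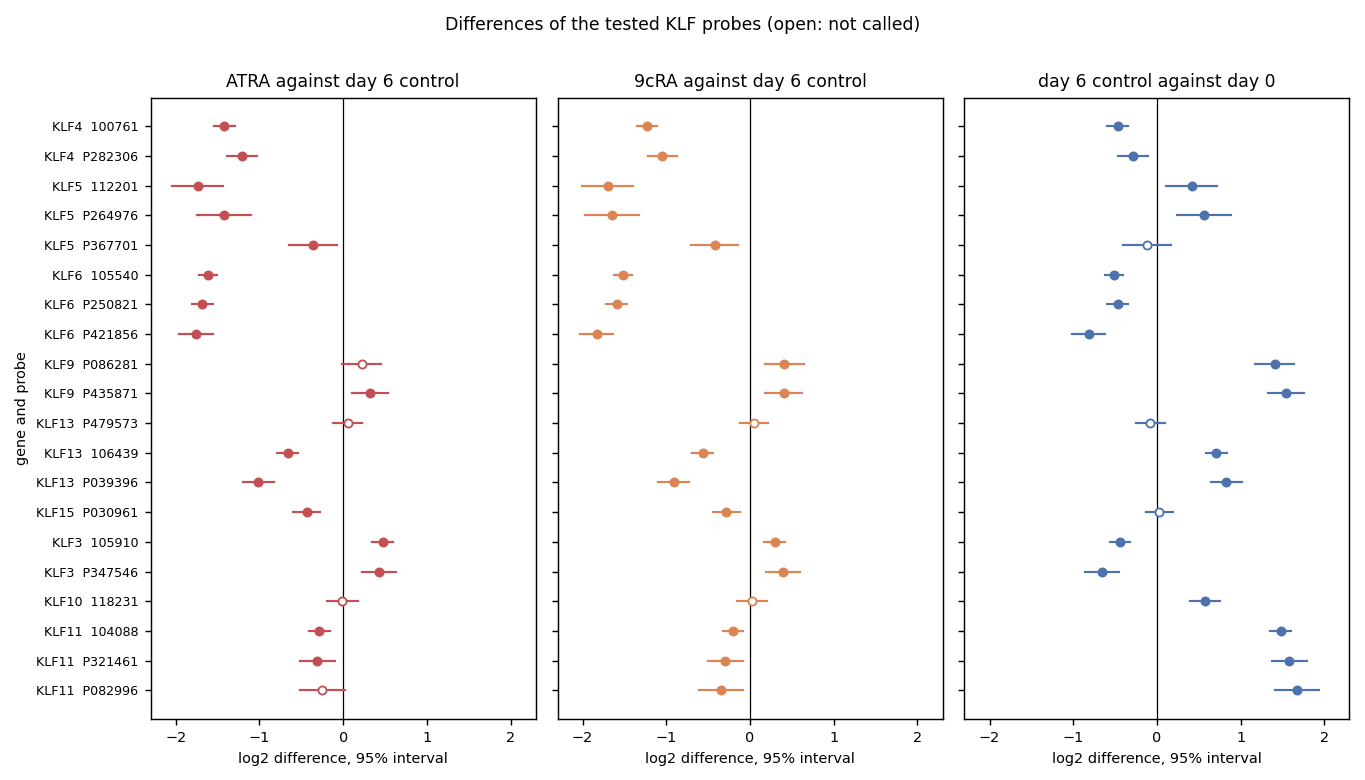
Log2 differences of the 20 tested KLF probes with 95% intervals, in rows by gene and probe, for ATRA against day 6 control, 9cRA against day 6 control, and day 6 control against day 0. Filled points were called; KLF4, KLF5 and KLF6 lie left of 0 under both retinoids, and KLF9 and KLF11 lie right of 0 over culture.

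KLF6 had the lowest adjusted p-value of the 20 probes under both retinoids. KLF6 is known to repress DLK1, a preadipocyte protein that inhibits differentiation, in mouse preadipocytes. Its brightest probe (chr13:44952069-44952128, plus strand) had levels of 1.83, 1.79 and 1.82 with ATRA and 1.88, 1.98 and 1.86 with 9cRA, against 3.42, 3.42 and 3.43 in the day 6 control and 3.89, 3.97 and 3.96 at day 0. Arrays of the retinoid groups lay below every day 6 control array, which in turn lay below every day 0 array. The ATRA difference from the day 6 control was -1.61 ± 0.049 (SE, adjusted p = 3.5e-09), or 3.06-fold lower. The 9cRA difference was -1.52 ± 0.049 (SE, adjusted p = 5.9e-09), or 2.86-fold lower. KLF6 had also fallen in the day 6 control relative to day 0, by 0.51 on the log2 scale (adjusted p = 6.9e-06). Set against day 0 directly, it was 4.36-fold lower with ATRA and 4.08-fold lower with 9cRA. The 5′ probe shown above gave differences of -1.76 with ATRA, -1.83 with 9cRA and -0.81 for the day 6 control against day 0. All 3 probes were called in the same direction in these comparisons, also with slide as a fixed or a random block.

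KLF4 followed the same order of groups. In mouse 3T3-L1 cells it is known as an early factor that activates Cebpb together with Krox20 (EGR2). The brightest KLF4 probe (chr8:98843872-98843931, minus strand) stood at 0.77, 0.59 and 0.67 with ATRA and 0.87, 0.86 and 0.86 with 9cRA, against 2.09, 2.04 and 2.16 in the day 6 control and 2.57, 2.55 and 2.58 at day 0. No array of 1 group reached into another, although ATRA and 9cRA lay close together. KLF4 differed by -1.42 ± 0.0551 (SE, adjusted p = 1.8e-08) with ATRA and by -1.23 ± 0.0551 (SE, adjusted p = 5.1e-08) with 9cRA, which is 2.67-fold and 2.35-fold lower than the day 6 control. Over culture KLF4 was 1.38-fold lower in the day 6 control than at day 0 (adjusted p = 3.2e-05). The second KLF4 probe differed by -1.21 with ATRA, -1.05 with 9cRA and -0.29 over culture, each called.

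KLF5 is known in mouse cells as a target of C/EBP-beta and C/EBP-delta that activates the PPARG promoter. Its brightest probe (chr12:48123286-48123345, plus strand) had levels of -3.24, -3.64 and -3.56 with ATRA and -3.34, -3.53 and -3.45 with 9cRA, against -2.05, -1.56 and -1.61 in the day 6 control and -2.17, -2.21 and -2.08 at day 0. The retinoid arrays lay below all others. KLF5 was 3.33-fold lower with ATRA, a difference of -1.74 ± 0.138 (SE, adjusted p = 3.2e-06), and 3.25-fold lower with 9cRA, a difference of -1.70 ± 0.138 (SE, adjusted p = 4e-06). Day 6 control array 1, on the slide of the day 0 arrays, stood near the day 0 level while the other 2 day 6 control arrays stood higher. The difference over culture, 0.41 ± 0.138 (SE, adjusted p = 0.023), was 0.10 (adjusted p = 0.59) with slide as a fixed block and 0.31 (adjusted p = 0.085) with slide as a random block. Without day 6 control array 2 it was 0.33 (adjusted p = 0.088), and it also missed the threshold without day 6 control array 3 and without day 0 array 1 or 2. A second KLF5 probe was lower by 1.43 with ATRA and by 1.65 with 9cRA, as differences of -1.43 (adjusted p = 2.1e-05) and -1.65 (adjusted p = 7.6e-06), and its difference over culture of 0.57 (adjusted p = 0.0063) became 0.40 (adjusted p = 0.15) with the fixed block and 0.52 (adjusted p = 0.02) with the random block. The 5′ probe shown above moved less. It differed by -0.36 (adjusted p = 0.042) with ATRA, by -0.42 (adjusted p = 0.021) with 9cRA and by -0.12 (adjusted p = 0.43) over culture, and both retinoid calls were lost with the fixed block, at -0.41 (adjusted p = 0.086) and -0.60 (adjusted p = 0.14). With the random block both were called, at -0.37 (adjusted p = 0.042) and -0.47 (adjusted p = 0.04).

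KLF9 is a direct target of the glucocorticoid receptor and is known in 3T3-L1 cells to activate the PPARG promoter. Among the members it was one of those with the widest change over culture. The brightest KLF9 probe (chr8:46883379-46883438, minus strand) stood at -2.73, -2.61 and -2.51 with ATRA, -2.37, -2.39 and -2.52 with 9cRA and -2.76, -2.97 and -2.77 in the day 6 control, against -4.02, -4.27 and -4.43 at day 0. All 9 arrays of day 6 cultures lay above the 3 day 0 arrays. The day 6 control was 2.65-fold higher than day 0, a difference of 1.41 ± 0.106 (SE, adjusted p = 1.1e-06), and the second probe differed by 1.54 (adjusted p = 3e-07). Against the day 6 control, ATRA differed by 0.22 (adjusted p = 0.12) and 9cRA by 0.41 (adjusted p = 0.01) at the brightest probe. The second probe differed by 0.32 (adjusted p = 0.022) with ATRA and 0.40 (adjusted p = 0.0074) with 9cRA. None of these small retinoid differences was called with slide as a fixed block, where the brightest probe gave 0.20 (adjusted p = 0.27) with ATRA and 0.28 (adjusted p = 0.38) with 9cRA, and the second probe 0.31 (adjusted p = 0.055) and 0.26 (adjusted p = 0.33). With slide as a random block the second probe was called with ATRA (0.32, adjusted p = 0.02) and 9cRA (0.34, adjusted p = 0.04), and the brightest with neither (adjusted p = 0.13 and 0.053). The second probe's ATRA call was also lost without ATRA array 1 or 3, or day 6 control array 2 or 3.

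KLF13 is known in pig adipocytes as an activator of PPARG. Its 3 probes did not give 1 answer. The GC-rich probe shown above was the brightest and lay between 7.28 and 7.59 on all 12 arrays, with no call in any comparison. The next brightest (chr21:28220913-28220972, plus strand) had levels of 1.61, 1.70 and 1.82 with ATRA and 1.82, 1.84 and 1.79 with 9cRA, against 2.35, 2.38 and 2.40 in the day 6 control and 1.67, 1.69 and 1.63 at day 0. There the day 6 control stood above the 3 other groups without overlap, and the retinoid groups lay near day 0. The difference over culture was 0.71 ± 0.057 (SE, adjusted p = 1.8e-06), that of ATRA against the day 6 control -0.66 ± 0.057 (SE, adjusted p = 5.7e-06), and that of 9cRA -0.56 ± 0.057 (SE, adjusted p = 2.1e-05). The remaining KLF13 probe, the second one shown above, differed by 0.83 (adjusted p = 9.1e-06) over culture, -1.01 (adjusted p = 3.9e-06) with ATRA and -0.91 (adjusted p = 9.2e-06) with 9cRA. Called differences at these 2 probes remained called with slide as a fixed or a random block in all 3 comparisons. Against day 0, the next brightest probe was not called with ATRA (0.05 (adjusted p = 0.49)), and its small difference with 9cRA of 0.15 (adjusted p = 0.04) turned to -0.05 (adjusted p = 0.73) with slide as a fixed block, was 0.11 (adjusted p = 0.23) with it as a random block, and missed the threshold when any 1 of the 3 9cRA or the 3 day 0 arrays was left out.

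KLF15 is known for induction by glucocorticoids, for activation of the glucose transporter gene SLC2A4 (GLUT4) and for control of amino acid breakdown in mouse liver and muscle. It was measured by 1 usable probe (chr22:61292677-61292736, plus strand), at -1.19, -1.20 and -1.27 with ATRA and -1.02, -1.05 and -1.13 with 9cRA, against -0.77, -0.93 and -0.65 in the day 6 control and -0.89, -0.74 and -0.80 at day 0. The day 6 control and day 0 arrays overlapped, and both retinoid groups lay below them. No change over culture was called (0.03 (adjusted p = 0.78), 95% interval -0.14 to 0.19). KLF15 was 1.35-fold lower with ATRA, a difference of -0.43 ± 0.0728 (SE, adjusted p = 0.00074). With 9cRA the difference of -0.28 (adjusted p = 0.0099) became -0.20 (adjusted p = 0.38) with slide as a fixed block and -0.26 (adjusted p = 0.046) with it as a random block. In no group were its other 2 probes well above background on all 3 arrays. One of those, at chr22:61292883-61292942, holds the letters AATAAA, the usual polyadenylation signal, which 9.35% of all probes also hold on the printed strand.

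**Figure D2:**
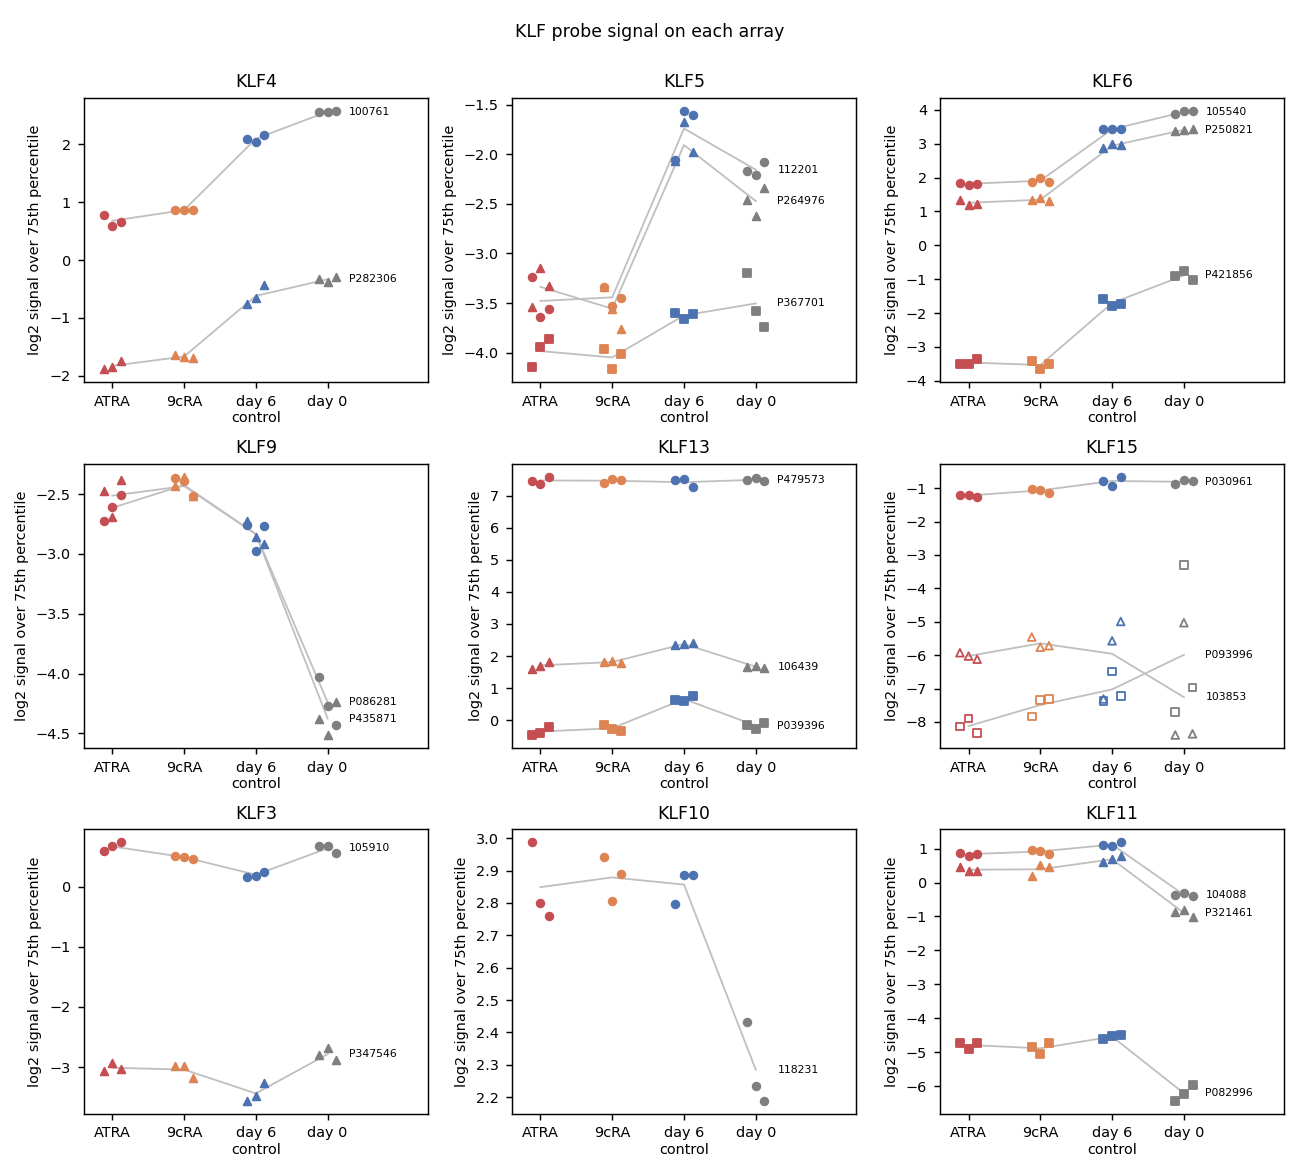
Log2 signal over the array's 75th percentile of each KLF probe on each of the 12 arrays, 1 panel per gene with its own vertical scale and the groups from left to right as ATRA, 9cRA, day 6 control and day 0. Point shapes separate the probes of a gene, open points are probes too dim to test, and grey lines join group means; KLF4 and KLF6 step up from the retinoid groups to day 0, while KLF9, KLF10 and KLF11 are lowest at day 0.

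Among the restraining factors, KLF3 is known in mouse cells to repress Cebpa through the corepressor CtBP. It ran opposite to KLF4 and KLF6 under the retinoids. Its brightest probe stood at 0.60, 0.67 and 0.74 with ATRA and 0.51, 0.50 and 0.47 with 9cRA, against 0.16, 0.18 and 0.25 in the day 6 control and 0.68, 0.67 and 0.57 at day 0. Its day 6 control arrays were the lowest of all, and ATRA overlapped day 0. KLF3 was 1.39-fold higher with ATRA, a difference of 0.47 ± 0.0543 (SE, adjusted p = 5.3e-05), and 1.23-fold higher with 9cRA, a difference of 0.29 ± 0.0543 (SE, adjusted p = 0.0015). The 9cRA difference was 0.17 (adjusted p = 0.25) with slide as a fixed block and 0.27 (adjusted p = 0.01) with it as a random block. Over culture KLF3 differed by -0.44 ± 0.0543 (SE, adjusted p = 4.6e-05). The second KLF3 probe gave 0.43 (adjusted p = 0.0032) with ATRA, 0.40 (adjusted p = 0.0051) with 9cRA and -0.65 (adjusted p = 0.0001) over culture, and its 9cRA call was lost with the fixed block at 0.36 (adjusted p = 0.18) and kept with the random block at 0.40 (adjusted p = 0.016).

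A probe outside the named set bears on KLF2, which is known in mouse preadipocytes to repress PPARG. The array files describe TC428018, an assembled transcript, as partly similar to human KLF2, and its probe lay at chr7:6615531-6615590, minus strand. It stood at -0.33, -0.42 and -0.31 with ATRA, -0.15, -0.24 and -0.14 with 9cRA and -0.72, -0.65 and -0.68 in the day 6 control, against 1.50, 1.62 and 1.53 at day 0. The 9 arrays of day 6 cultures lay below the day 0 arrays, and the 3 groups at day 6 did not overlap each other. The day 6 control was 4.71-fold lower than day 0 (adjusted p = 3.2e-10), and TC428018 was 1.26-fold higher with ATRA (adjusted p = 0.00072) and 1.42-fold higher with 9cRA (adjusted p = 3.5e-05) than the day 6 control. Whether this transcript is bovine KLF2 was not tested.

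KLF10 and KLF11 repress transcription through the corepressor SIN3A. KLF11 (chr11:87525755-87525814, minus strand) had levels of 0.88, 0.79 and 0.84 with ATRA, 0.96, 0.94 and 0.85 with 9cRA and 1.10, 1.07 and 1.19 in the day 6 control, against -0.37, -0.31 and -0.39 at day 0. Every array of a day 6 culture lay above the day 0 arrays, and the day 6 control arrays lay above the retinoid arrays. KLF11 was 2.79-fold higher in the day 6 control than at day 0, a difference of 1.48 ± 0.055 (SE, adjusted p = 5.7e-09), and it stayed 2.29-fold higher with ATRA and 2.42-fold higher with 9cRA than at day 0. The KLF11 probe that overlaps this one was 2.99-fold higher in the day 6 control than at day 0. At the 5′ probe shown above KLF11 was not well above background at day 0 (0 of 3 arrays), and the day 6 control was at least 2.87-fold higher (adjusted p = 7.1e-07), a bound set by the dimmest signals that count as above background. Against the day 6 control KLF11 was lower by a small amount at its brightest probe, at -0.28 (adjusted p = 0.0019) with ATRA and -0.20 (adjusted p = 0.013) with 9cRA. With slide as a fixed block these were -0.29 (adjusted p = 0.012) and -0.22 (adjusted p = 0.2), and with it as a random block -0.29 (adjusted p = 0.002) and -0.21 (adjusted p = 0.039). The overlapping probe gave -0.31 (adjusted p = 0.021) and -0.30 (adjusted p = 0.026), and neither was called with the fixed block (adjusted p = 0.055 and 0.32). At the 5′ probe the ATRA difference of -0.25 (adjusted p = 0.12) was not called. Its 9cRA difference of -0.35 (adjusted p = 0.038) was not called with the fixed block (adjusted p = 0.23). Each call at these dimmer probes was also lost in some fits that left out a single array.

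KLF10 (chr14:63957110-63957169, plus strand) stood at 2.99, 2.80 and 2.76 with ATRA, 2.94, 2.81 and 2.89 with 9cRA and 2.80, 2.89 and 2.89 in the day 6 control, against 2.43, 2.23 and 2.19 at day 0. It was higher in all 3 day 6 groups than at day 0, without overlap. The day 6 control differed from day 0 by 0.57 ± 0.0812 (SE, adjusted p = 0.00013). No retinoid difference was called for KLF10: the 95% intervals ran from -0.19 to 0.17 for ATRA and from -0.16 to 0.20 for 9cRA against the day 6 control.

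ATRA and 9cRA are stereoisomers of retinoic acid that differ in the geometry of 1 double bond, and textbook knowledge has retinoic acid receptors binding both and retinoid X receptors binding 9cRA. Both were given at 1 µM for 6 days, so this is 1 pair compared at a matched dose and time. In limma 0 of 20 KLF probes were called between them, beside 0.151% of all probes. The 95% interval, which is not adjusted, left out 0 at the brightest KLF4 and KLF3 probes. KLF4 differed there by -0.19 (adjusted p = 0.29, interval -0.31 to -0.06) and KLF3 by 0.18 (adjusted p = 0.31, interval 0.06 to 0.30). Their second probes gave -0.16 (-0.34 to 0.02) for KLF4 and 0.03 (-0.17 to 0.23, arrays overlapping) for KLF3. At both brightest probes the ATRA and 9cRA arrays did not overlap, ATRA lying farther from the day 6 control. Nor did they overlap at the second KLF4, brightest KLF6 and tested KLF15 probes. How many of all probes had such intervals or arrays was not counted. The remaining intervals all held 0. KLF6 differed by -0.09 (-0.20 to 0.02), KLF5 by -0.04 (-0.34 to 0.27) and KLF9 by -0.19 (-0.43 to 0.05). Over all 20 probes the largest difference was 0.22, at the second KLF5 probe and the intervals reached from -0.43 to 0.54. ATRA array 3 shared its slide with the 9cRA arrays, and the other ATRA arrays did not.

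**Figure D3:**
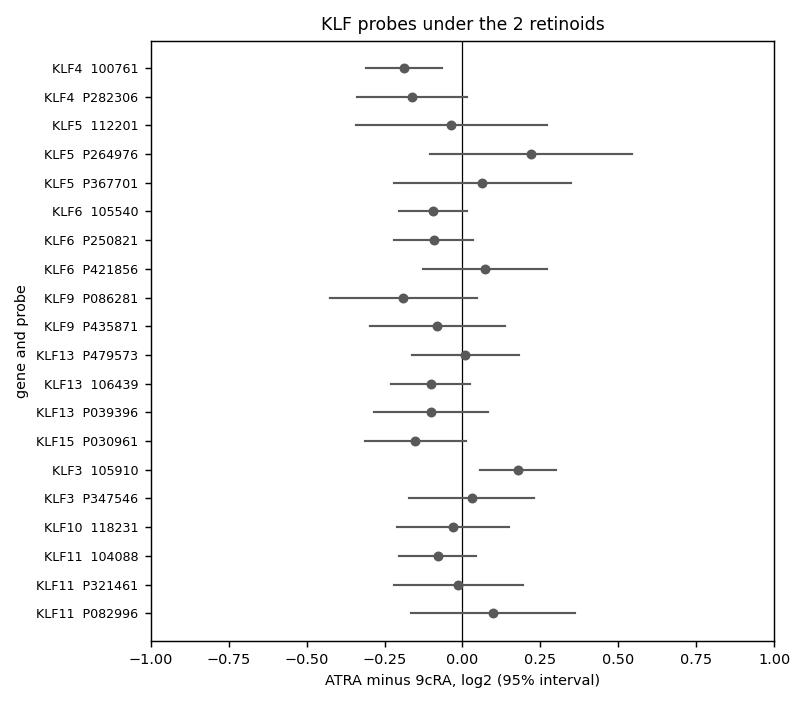
ATRA minus 9cRA on the log2 scale for the 20 tested KLF probes, with 95% intervals, in rows by gene and probe. All intervals lie between -0.43 and 0.54, and those of the brightest KLF4 probe and the brightest KLF3 probe (each the upper row of its gene) leave out 0.

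Against day 0, ATRA cultures had 16 of 20 KLF probes called, 6 higher and 10 lower, beside 70.4% of all probes (35.5% higher and 34.9% lower). For 9cRA it was 18 of 20, 7 higher and 11 lower, beside 69.8% (35.7% higher and 34.1% lower). These comparisons share the day 0 arrays with that of the day 6 control. KLF4 was 3.7-fold lower with ATRA and 3.25-fold lower with 9cRA than at day 0, and KLF5 was 2.5-fold and 2.44-fold lower. KLF9 was 3.08-fold higher with ATRA and 3.52-fold higher with 9cRA. KLF3 with ATRA was not distinguished from day 0 at its brightest probe (0.03 (adjusted p = 0.63), interval -0.09 to 0.15). At the second KLF3 probe ATRA was called lower than day 0 (-0.23, adjusted p = 0.043). That call was lost with slide as a fixed block (-0.40, adjusted p = 0.078). The median over the 20 probes was -0.21 for ATRA and -0.20 for 9cRA, beside 0.011 and 0.024 over all probes.

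Slide was the setting that most changed the 9cRA calls. With slide as a fixed block, 9 of 20 probes were called for 9cRA against the day 6 control, in place of 18 without a block and 15 with slide as a random block. Over all 31207 probes the calls were 6496 with the fixed block, 13584 without a block and 10508 with the random block. The 9 calls lost with the fixed block were differences between -0.42 and 0.41 without it. Those of KLF4, KLF6, KLF13 and the brighter KLF5 pair lay between -1.91 and -0.74 with it. The part of slide in the smaller differences was not tested further, since no slide held both groups.

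**Figure D4:**
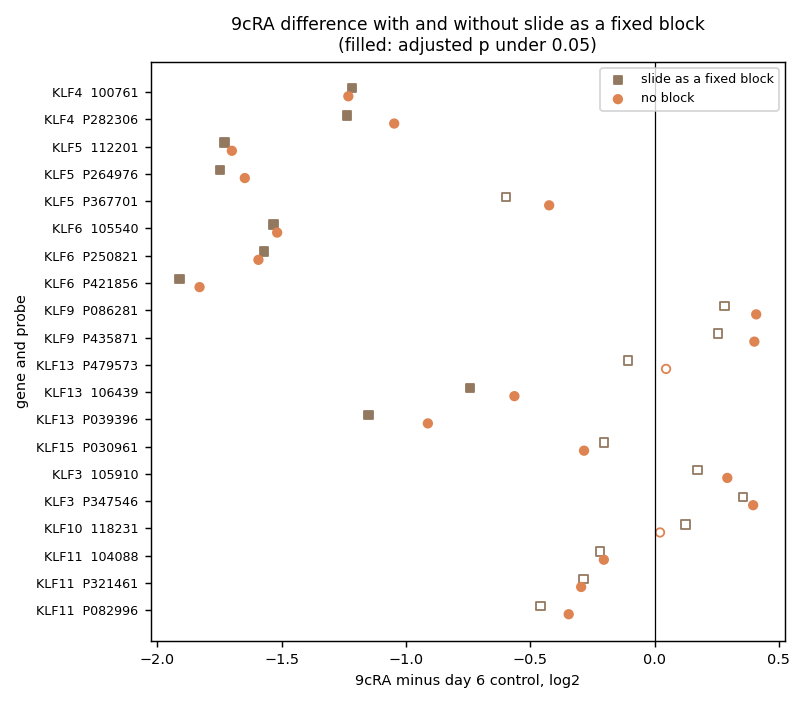
9cRA minus day 6 control on the log2 scale for the 20 tested KLF probes, circles without and squares with slide as a fixed block, filled where the adjusted p was under 0.05. The 9 filled squares belong to KLF4, KLF5, KLF6 and KLF13.

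Other genes of the KLF and SP family moved in both directions. Of 15 on the array, 9 were tested, each at its brightest probe. Over culture 4 rose and 2 fell, beside 62% of all genes called, 30.9% higher and 31.1% lower. With ATRA 1 rose and 2 fell (45.1% of genes called, 23.2% higher and 21.9% lower), and with 9cRA 2 rose and 2 fell (45.5%, 24.2% higher and 21.4% lower). KLF7, known to inhibit fat cell formation in human preadipocytes, averaged -3.42 with ATRA and -3.71 with 9cRA, against -2.14 in the day 6 control and -3.11 at day 0. Its differences were -1.28 with ATRA (adjusted p = 0.00092), -1.58 with 9cRA (adjusted p = 0.00024) and 0.98 over culture (adjusted p = 0.0031). TC445504, a transcript that the array files liken to pig KLF7, differed by -1.42 (adjusted p = 6e-07) with ATRA, -1.55 (adjusted p = 3.4e-07) with 9cRA and 1.02 (adjusted p = 3.7e-06) over culture, in the same directions. SP8, a developmental regulator, differed by -0.76 with ATRA, -0.98 with 9cRA and 0.77 over culture, each called. SP1, a broadly expressed GC-box factor, was higher by 0.61 with ATRA and 0.35 with 9cRA and lower over culture (-0.31). KLF16 was called over culture (0.48) and with 9cRA (0.52) but not with ATRA (0.22). None of the 9 tested genes was called between ATRA and 9cRA, and their values come from the fit without a slide block. SP2 fell (-0.60) and SP3 rose (0.22) over culture, and neither was called with a retinoid. KLF14, SP4 and SP7 were called in none of the 3 comparisons, with differences from -0.37 to 0.48. KLF1, KLF8, KLF12, KLF17, SP5 and SP6 were too dim to test.

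Of 8 adipogenic genes known to lie upstream or downstream of KLFs, 5 rose and 1 fell over culture, and 4 rose and 1 fell with each retinoid. Beside these, 62% of all genes were called over culture (30.9% higher and 31.1% lower). With ATRA 45.1% were called (23.2% higher and 21.9% lower), and with 9cRA 45.5% (24.2% higher and 21.4% lower). PPARG, the nuclear receptor that directs fat cell formation, rose by 1.81 over culture (adjusted p = 9.3e-09) and was not called with ATRA (0.02) or 9cRA (0.06). CEBPD, a C/EBP factor acting early in differentiation, rose by 1.52 over culture and by 0.15 with each retinoid, and its dimmer probe was called over culture alone (1.30). The brightest CEBPB probe rose by 0.30 over culture, 0.28 with ATRA and 0.43 with 9cRA, but a dimmer one was called in none of the 3 (0.17, -0.12 and 0.01). CEBPA probes also differed: the brightest was called in none (0.13, 0.09 and 0.06), whereas a second rose by 1.36 over culture (adjusted p = 1.1e-07), 0.22 with ATRA (adjusted p = 0.037) and 0.29 with 9cRA (adjusted p = 0.0099). FABP4, a fatty acid binding protein of adipocytes, averaged 1.33 with ATRA and 1.63 with 9cRA, against 6.26 in the day 6 control and 1.92 at day 0. It differed by -4.94 with ATRA (adjusted p = 3.6e-10), -4.64 with 9cRA (adjusted p = 6.6e-10) and 4.34 over culture (adjusted p = 2.9e-10). SLC2A4, the target named above for KLF15, rose by 0.60 over culture, 0.46 with ATRA and 0.47 with 9cRA, and of its other 2 probes both rose with each retinoid and 1 over culture. DLK1, the target named for KLF6, was called with 9cRA alone at its brightest probe (0.51, and 0.28 with ATRA, adjusted p = 0.19), the 2 retinoids not being called apart (adjusted p = 0.71). Of the other 2 DLK1 probes, 1 rose with both (0.34 each) and 1 with neither. EGR2, the partner named for KLF4, fell by 0.34 over culture and rose by 0.36 with ATRA, with a difference of 0.23 for 9cRA that was not called.

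Of 9 cofactors and modifiers of KLF proteins tested, 5 rose and 1 fell over culture, where 30.9% of all genes rose and 31.1% fell. With ATRA 6 rose and none fell, beside 23.2% and 21.9% of all genes, and with 9cRA 7 rose and none fell, beside 24.2% and 21.4%. WWP1, a ubiquitin ligase that acts on KLF proteins, rose by 0.53 over culture and by 0.49 with each retinoid. The histone deacetylase HDAC1 rose by 0.69 with ATRA and 0.74 with 9cRA and was not called over culture (adjusted p = 0.98). HDAC2 rose by 0.51 over culture, 0.42 with ATRA and 0.34 with 9cRA at its brightest probe, the 9cRA call not being shared by 2 dimmer ones (0.25 and 0.11). CTBP1, the corepressor partner of KLF3, fell by 0.68 over culture, and its differences of 0.57 with ATRA (adjusted p = 0.082) and 0.46 with 9cRA (adjusted p = 0.15) were not called, while a dimmer CTBP1 probe was called at 0.24 with each.

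The pathways that KLF9, KLF10, KLF11 and KLF15 are known to follow were read from their own genes. Shares of all genes called, for each list that follows, were 30.9% higher and 31.1% lower over culture, 23.2% and 21.9% with ATRA, and 24.2% and 21.4% with 9cRA. Of 16 genes listed as glucocorticoid-induced, with the glucocorticoid receptor gene NR3C1 itself among them, 14 rose and 2 fell over culture. Their median log2 difference was 2.34 beside 0.0043 over all genes, and 5 rose and 9 fell with ATRA and again with 9cRA. Dimmer SGK1 probes fell over culture (-1.31 and -1.02). Over culture ANGPTL4 differed by 7.13, MT2A by 4.41, ZBTB16 by 4.02 and TSC22D3 by 3.41. They split with ATRA, where MT2A differed from the day 6 control by 4.27 and ANGPTL4 by 1.70, but ZBTB16 by -1.15 and TSC22D3 by -2.57. MT2A is a metallothionein, a family of near-identical genes, and 1 of its 2 dimmer probes was called in none of these comparisons. KLF9 rose over culture, as did 14 of these 16 genes, and KLF15 was not called. Of 17 TGF-beta response genes, 9 rose and 3 fell over culture, and 6 rose and 6 fell with each retinoid. ID1 differed by 4.05 over culture, 1.14 with ATRA and 1.11 with 9cRA. Of 9 genes of amino acid breakdown linked to KLF15, 2 rose and 4 fell over culture, 1 rose and 3 fell with ATRA, and 3 rose and 2 fell with 9cRA, so that 6, 4 and 5 of 9 were called, beside 62%, 45.1% and 45.5% of all genes. PRODH, the first enzyme of proline breakdown, differed by -1.40 with ATRA, -1.41 with 9cRA and 0.93 over culture, and BCAT2, a branched-chain aminotransferase, by -0.53, -0.50 and -1.18.

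The pathways upstream of the remaining members gave mixed counts. Of 5 genes of the ERK5 and MEF2 route, which is known to drive KLF2 and KLF4 in endothelium, 2 rose and 2 fell over culture, 4 fell with ATRA and 3 fell with 9cRA, where 31.1%, 21.9% and 21.4% of all genes fell. MEF2B differed by -0.55 with ATRA and -0.68 with 9cRA, and MEF2A by -0.41 and -0.36, with a dimmer MEF2A probe not called with ATRA (-0.25). Of 15 serum immediate early genes, 3 rose and 7 fell over culture, 6 rose and 5 fell with ATRA, and 8 rose and 5 fell with 9cRA (62%, 45.1% and 45.5% of all genes were called). EGR1 was lower with ATRA than with 9cRA, at a difference of -1.04 (adjusted p = 0.014), as was IER2, at -0.46 (adjusted p = 0.04), where 0.119% of genes were called. Neither call held without ATRA array 2 or 3, with array number as a block or without the filter on dim probes. Of 13 clock genes, 6 rose and 2 fell over culture, 2 rose and 4 fell with ATRA, and 2 rose and 6 fell with 9cRA, again beside 62%, 45.1% and 45.5% of all genes called. ARNTL, the clock activator BMAL1, differed by -1.39 with ATRA, -1.31 with 9cRA and 1.17 over culture.

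Smooth muscle markers fell in the comparisons in which KLF4 and KLF6 fell. Of 6 on the array 5 were tested; all 5 fell with each retinoid and 4 fell over culture, where 21.9% (ATRA), 21.4% (9cRA) and 31.1% (culture) of all genes fell. Their summed signal was 28.3 to 30.0 times the array's 75th percentile with ATRA and 27.4 to 31.6 with 9cRA, against 202 to 245 in the day 6 control and 408 to 416 at day 0. ACTA2, smooth muscle actin, differed by -3.86 with ATRA and -3.80 with 9cRA, and MYH11 was too dim to test. The order of groups is that of KLF4 and KLF6, and the part of these cells or genes in the KLF differences was not tested. Skeletal muscle markers summed to 19.5 to 19.8 with ATRA and 21.1 to 22.7 with 9cRA, against 42.0 to 46.9 in the day 6 control and 70.1 to 74.9 at day 0. The sum follows the brightest DES probe, and DES probes went opposite ways. Of the 4 of 6 tested, DES fell at that probe (-1.31 with ATRA and -1.14 with 9cRA) but was higher at 2 dimmer probes (2.53 and 2.56 with ATRA, 2.58 and 2.60 with 9cRA). MYH3 rose with ATRA (0.44), MYOD1 and MYOG were not called with either retinoid at their brightest probes, and MYF5 was at background on all 12 arrays. A dimmer MYOG probe was higher with ATRA (0.41, adjusted p = 0.033) and with 9cRA (0.43, adjusted p = 0.028). No dimmer tested MYOD1 probe was called with either. Adipocyte markers, 6 of 8 tested, summed to 35.1 to 35.9 with ATRA and 32.4 to 37.9 with 9cRA, against 99.0 to 118 in the day 6 control and 30.2 to 33.9 at day 0. Most of the change in this sum is that of FABP4. Over culture 3 of the 6 rose, 1 fell and 2 were not called, where 30.9% of all genes rose and 31.1% fell. With each retinoid 2 of the 6 fell, FABP4 and CIDEC, and 4 were not called, the median difference being -0.0087 with ATRA and 0.059 with 9cRA. Macrophage and leukocyte markers, 4 of 6 tested, summed to 4.07 to 4.27 with ATRA and 3.81 to 4.22 with 9cRA, against 1.40 to 2.13 in the day 6 control and 1.91 to 2.23 at day 0, with AIF1 and ITGAM never well above background. All 4 were higher with each retinoid at their brightest probes, where 23.2% (ATRA) and 24.2% (9cRA) of all genes rose. A dimmer CD68 probe was called with neither (0.01, adjusted p = 0.98, and -0.50, adjusted p = 0.26). A dimmer PTPRC probe was called with 9cRA (0.43, adjusted p = 0.047) but not with ATRA (0.31, adjusted p = 0.13). Dimmer CD14 and CSF1R probes were higher with both. Endothelial markers, included because KLF2 and KLF4 are known from endothelium and 5 of 8 tested, summed to 2.91 to 3.12 with ATRA and 2.83 to 3.06 with 9cRA, against 1.95 to 2.28 in the day 6 control and 0.869 to 0.973 at day 0, and PECAM1 was never well above background. Under this sum single markers moved both ways over culture, where 3 of the 5 rose and 2 fell, beside 30.9% and 31.1% of all genes. With ATRA 3 rose and none fell, beside 23.2% and 21.9% of all genes. With 9cRA 2 rose and none fell, beside 24.2% and 21.4%.

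Genes whose brightest probes most closely followed a member were listed for members whose group means spanned at least 1 on the log2 scale, by Pearson's r over the 12 arrays among 3352 named genes with as wide a span. The arrays fall into 4 groups, so r mostly measures the group means and is given as a description. KLF6 and KLF4 were near each other (r = 0.997), and CORO2A was nearest to both (r = 0.997 with KLF4 and 0.998 with KLF6). PLXDC2 was also near KLF4 (r = 0.997), and CDH13 and ACTA2 were near KLF6 (r = 0.998 each). KLF5 was followed by SHROOM3 (r = 0.989), REEP1 (r = 0.987) and CCN2 (r = 0.986). KLF9 was followed by LRRN2 and KDM3A (r = 0.989 each) and ND6 (r = 0.988), and KLF11 by CDH10 and CRISPLD2 (r = 0.997 each) and SUN2 (r = 0.996).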

How the data were processed

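RNA of the 4 groups was measured on 12 bovine 60-base oligonucleotide arrays in 1 colour, 3 arrays a group. Amplification from a poly-dT T7 primer and Cy3 labelling started from 100 ng of RNA, per the labels. The authors deposited linear spot intensity from Feature Extraction 10.7.3.1, which, per the file headers, had subtracted background and removed spatial and multiplicative trends without normalizing between arrays. The authors also deposited a log2 table with 1 column a group; set against the arrays it was the group mean of log2 signal minus the 75th percentile, less the probe's median over 12 arrays (median absolute difference 0.00255 to 0.00276). Its column medians were 0.01 (ATRA), 0.02 (9cRA), -0.01 (day 6 control) and 0.01 (day 0). Its scale, centring and direction were settled in this way, and it served as an alternative.

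Control spots (1417 of 45220 an array) and outlier spots (191 in all) were left out, and 0 spots were saturated. The 75th percentile signal lay between 1094 and 1359. Processed signal was taken to log2, the array's 75th percentile subtracted, and spots of a probe averaged. The number of arrays limits the precision. Group means were fitted in limma 3.58.1 (R 4.3.3, lmFit and eBayes, two-sided) over all 12 arrays, and Benjamini-Hochberg adjustment ran over all 31207 tested probes of a comparison. A probe was tested if every array of some group had it well above background. The fit was tested on simulated data.

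Member probes were taken by the gene name in the files, and every one is accounted for. Other genes were named through a RefSeq table of assembly ARS-UCD2.0 (names only) and spoken for by their brightest probe. All tested genes of the other KLF and SP genes and of the adipogenic list were named, up to 4 of each other list, and the 3 nearest patterns of a member. The members and lists were chosen with earlier results of these data known. Alternatives covered normalization, background, filter, slide, array number, the groups fitted and each array left out. Array numbers did not pair the arrays: over 18 pairs of arrays with 1 number in 2 groups, residual correlations lay between -0.173 and 0.094. Promoter sequences were not used here.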

Additional observations from a re-analysis of the deposited data

How the results depend on the processing

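Of 6 counts of called KLF probes, none moved by over 1.5 times under quantile or cyclic loess normalization, median scaling, normexp background, either filter, slide as a random block or the 2-group fits. With slide as a fixed block 9cRA against day 6 control fell to 9 of 20 from 18, and the other counts were 15 for the day 6 control against day 0, 13 for ATRA against day 6 control, 0 for ATRA against 9cRA, and 13 each for ATRA and 9cRA against day 0. Over all 31207 probes the fixed-block counts in the same order were 6496, 15983, 11259, 70, 14526 and 11586. With 1 brightest probe per gene, of 9 genes, 7 were called for the day 6 control against day 0, 6 for ATRA and 7 for 9cRA against the day 6 control, 7 for ATRA and 8 for 9cRA against day 0, a smaller number because fewer probes were tested. Over all 17623 genes the counts in the same order were 10985, 8131, 8202, 12600 and 12574. Leaving out 1 array gave 16 to 17 for the day 6 control against day 0, 13 to 15 for ATRA and 15 to 18 for 9cRA against the day 6 control, 0 for ATRA against 9cRA, and 15 to 16 for ATRA and 15 to 17 for 9cRA against day 0. Over all 31207 probes the ranges in the same order were 17396 to 20225, 11428 to 13435, 10844 to 13121, 0 to 52, 20504 to 21175 and 20190 to 20972. Array number as replicate block, a number that does not pair the arrays, gave 17, 15, 18, 0, 15 and 16 in the order day 6 control against day 0, ATRA and 9cRA against day 6 control, ATRA against 9cRA, and ATRA and 9cRA against day 0. All-probe counts with that block were, in this order, 18459, 12458, 12380, 0, 21278 and 21058. The GC-rich KLF13 probe, not called as reported, was called with the opposite sign at 0.11 (quantile) for the day 6 control against day 0, 0.13 (quantile) and 0.18 (cyclic loess) for ATRA against day 0, and 0.14 (cyclic loess) for 9cRA against day 0; the cause was not tested. The next brightest KLF13 probe turned to -0.054 for 9cRA against day 0 with slide as a fixed block, not called, and the cause was not tested. Of the single probe values under all alternatives, 1976 stayed on the same side of the threshold, 56 of them (none called) with the opposite sign, 100 lost the call, 4 gained it and 5 reversed. Median scaling moved the median of all probes to -0.117 for ATRA and -0.107 for 9cRA against day 0, beside 0.011 and 0.024. Values of dim probes are limited by their signal over background, which left 2 of 22 KLF probes untested.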
